A study of Mus musculus with 10 samples.

Results

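Genomic imprinting leaves a gene active on the copy from only 1 parent, and imprinted genes are known above all as regulators of growth before and after birth. Here 10 of them were followed in mouse bladder, namely *H19*, *Igf2*, *Dlk1*, *Peg3*, *Cdkn1c*, *Grb10*, *Mest*, *Plagl1*, *Ndn* and *Sgce*. They were taken by symbol from the 55536 genes of the count tables, by matching Ensembl identifiers to GENCODE vM21 (build GRCm38), and all 10 were found. In most mouse tissues *Igf2*, *Dlk1*, *Peg3*, *Mest*, *Plagl1*, *Ndn* and *Sgce* are read from the paternal copy, and *H19*, *Cdkn1c* and *Grb10* from the maternal copy. Imprinting is set in clusters by DNA methylation laid down in egg or sperm, and several clusters also make a long noncoding RNA from the other parental chromosome. Many of these genes are abundant in the fetus and are turned down after birth. The counts do not separate the parental copies, so each value below is the sum of both.

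Wild type and 2 knockout genotypes of C57BL/6 mice were compared, namely WT (4 libraries), homozygous loss of osteomodulin (OMD-/-, 3 libraries) and homozygous loss of PRELP (PRELP-/-, 3 libraries). Osteomodulin and PRELP are small leucine-rich proteoglycans of the extracellular matrix, and the study asked how their loss changes gene expression in the bladder. The labels describe excised and homogenised bladder tissue, whereas the study's text speaks of isolated bladder epithelia. The study's text also gives group sizes, counted as mice, that differ from those of the labels for WT and OMD-/-, and the labels were followed here. The labels give no age or sex and do not say whether each library came from a separate animal, so the p-values measure the spread between these samples, which may in part be technical.

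*H19* hosts miR-675 in an exon, *Igf2* hosts miR-483 and *Mest* hosts miR-335, the last 2 in introns, on the strand of the host. Their mature forms (RefSeq, GRCm38.p6) are shown because they are cut from transcripts of these same genes, although the poly(A) libraries did not measure mature miRNAs. Capitals mark the seed, bases 2 to 8 from the 5′ end, and no 2 of the 6 arms share a seed.
miR-675-5p: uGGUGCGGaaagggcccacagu
miR-675-3p: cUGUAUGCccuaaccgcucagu
miR-483-5p: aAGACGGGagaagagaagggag
miR-483-3p: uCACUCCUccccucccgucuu
miR-335-5p: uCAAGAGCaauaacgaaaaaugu
miR-335-3p: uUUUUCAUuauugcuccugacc

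Promoter windows of 300 bases around a RefSeq start were listed for 7 of the 10 genes, all but *H19*, *Cdkn1c* and *Sgce*, in 13 windows. The windows of *Ndn* and *Peg3* are shown because these were the genes whose OMD-/- and WT libraries did not overlap, a choice made after their values were seen. *Ndn* is an intronless gene, and its window at chr7:62348027-62348326 (plus strand) held 11 CpG dinucleotides, against a median of 7 over all 32851 windows. Capitals in it mark the letters of the GC box, GGGCGG on either strand, found at positions 252 and 256 counted from the first base of the window.
Ndn: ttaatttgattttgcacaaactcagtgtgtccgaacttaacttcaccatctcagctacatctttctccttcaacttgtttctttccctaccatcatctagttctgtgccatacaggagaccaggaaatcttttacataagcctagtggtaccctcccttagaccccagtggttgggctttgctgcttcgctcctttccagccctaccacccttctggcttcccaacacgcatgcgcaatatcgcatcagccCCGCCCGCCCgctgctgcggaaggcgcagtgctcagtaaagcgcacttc

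The *Peg3* window at chr7:6730370-6730669 (minus strand) held 13 CpG dinucleotides, and the start of *Usp29*, on the opposite strand, lies inside it at base 6730578 of chromosome 7. It was the only window of the 13 with the letters GGGGCCCC, in capitals below, which belong to the binding motif of the zinc finger protein made by *Plagl1*.
Peg3: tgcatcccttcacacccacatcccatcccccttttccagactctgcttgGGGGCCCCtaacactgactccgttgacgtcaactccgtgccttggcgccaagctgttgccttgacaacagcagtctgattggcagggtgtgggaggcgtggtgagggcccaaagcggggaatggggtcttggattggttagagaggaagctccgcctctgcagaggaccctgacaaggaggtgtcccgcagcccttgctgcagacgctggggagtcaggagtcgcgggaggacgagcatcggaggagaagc

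The letters GGGGCCCC were present in 1.08% of all windows. The GC box was present in 35.7% of all windows and in 8 of the 13 windows here, in *Grb10*, *Igf2*, *Mest*, *Ndn* and *Plagl1*. TATAAA, searched on both strands, was in none of the 13 windows and in 13.6% of all windows. These are matches of letters, not measured binding sites.

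Library totals ran from 20391437 to 46269079 counts. *Prelp*, the gene targeted in PRELP-/-, had from 1.84 to 4.20 CPM there (CPM, normalised counts scaled to a common library size) from 215 to 317 CPM in WT and from 772 to 826 CPM in OMD-/-, where it was higher (log2 fold change 1.59 ± 0.12, SE, by edgeR). *Omd* was at most 0.532 CPM in any library. It gave 0 counts in the 3 OMD-/- libraries, but also 0 and 1 counts in WT replicates 1 and 2, so its counts do not check the OMD-/- label. The libraries were not evenly spread within their groups. WT replicates 1 and 2 lay close together, as did WT replicates 3 and 4, OMD-/- replicates 2 and 3 and PRELP-/- replicates 2 and 3, and all these pairs still differed by more than sampling noise. PRELP-/- replicate 1 stood apart, with summed markers of urothelium at 29134 CPM against 18147 and 18855 CPM in the other two, of fibroblasts at 10026 against 19271 and 19692 CPM, and of blood at 474 against 63.1 and 69.6 CPM. Fibroblast markers, 8 of 8 of them detected in every library, summed to between 8358 and 9526 CPM in WT and between 17748 and 21641 CPM in OMD-/-. Smooth muscle markers summed to 354 and 335 CPM in WT replicates 1 and 2 and to 1386 and 1220 CPM in replicates 3 and 4, and 4 Y-chromosome genes summed to 189 and 163 CPM in the first pair and to 0 and 0.0443 CPM in the second. In the knockouts those 4 genes summed to 120 CPM in PRELP-/- replicate 1 and to 18.8 and 18.5 CPM in the other two, and to 18.1, 0.806 and 0.731 CPM in the OMD-/- libraries. All 12 urothelial markers were detected in every library, so the tissue label was met, but the libraries also hold stromal RNA. In such bulk samples fewer cells of a type and less RNA per cell cannot be told apart.

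The 10 genes covered a wide range of levels. Between genes, levels were compared as CPM per kilobase of exon, over all exon bases. *Igf2*, *Cdkn1c* and *Mest* share long stretches of exon with other gene models, as given below, so their places in the order are uncertain. In WT, *Peg3*, a zinc finger protein of growth and maternal behaviour, was highest at 10.4 ± 2.39 (SD, n = 4, here and for the WT levels that follow). *Sgce*, the epsilon-sarcoglycan of the membrane complex that links cells to the matrix, followed at 4.84 ± 0.460 CPM per kilobase. *Plagl1* stood at 4.33 ± 1.13, *Ndn* at 4.25 ± 0.208, *Cdkn1c* at 3.26 ± 0.865 and *Grb10* at 2.56 ± 0.388 CPM per kilobase. *Mest*, at 0.672 ± 0.168, and *Igf2*, at 0.600 ± 0.214, were lower again, and *H19*, at 0.206 ± 0.146, and *Dlk1*, at 0.0678 ± 0.0251 CPM per kilobase, were lowest. Within the run from *Sgce* to *Grb10*, between *Mest* and *Igf2*, and between *H19* and *Dlk1*, the libraries of neighbours in this order overlapped. The same 6 genes made up the upper part of the order in OMD-/- and in PRELP-/-, and *Peg3* was first in all 3 groups.

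**Figure D1:**
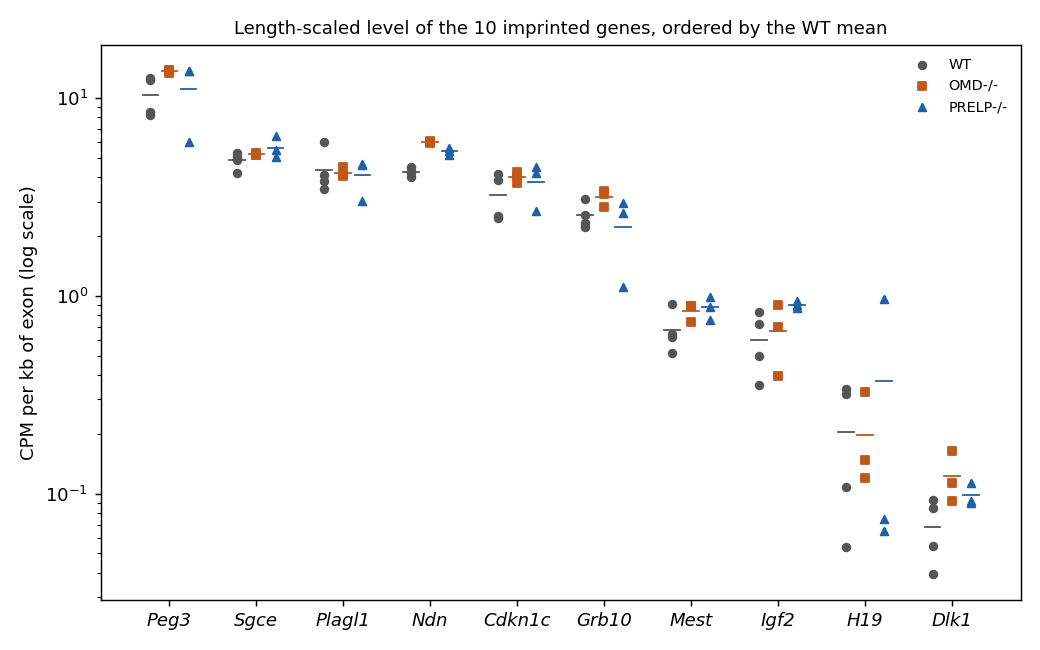
Level of each gene in CPM per kilobase of exon (vertical axis, log scale) in every library, ordered by the WT mean, with a short line at each group mean. *Peg3* to *Grb10* sit in WT at means of 10.4 down to 2.56, apart from *Mest*, *Igf2*, *H19* and *Dlk1* at means of 0.672 and below.

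In OMD-/- bladders 1 of the 10 genes rose past the test, *Ndn*, which encodes necdin, a protein of neurons and mesenchymal cells that restrains cell growth. All 10 were tested in OMD-/- against WT with edgeR's quasi-likelihood test, and 8 had a positive log2 fold change. The share of 1 in 10 called stands beside 29.4% of all 16647 genes tested at an adjusted p under 0.05. Of all genes tested, 14.3% were called higher and 15.1% lower. The median log2 fold change of the 10 genes was 0.30, against −0.0002 over all genes tested. In PRELP-/- bladders edgeR called none of the 10, in a comparison that called 7.29% of 16581 genes. There 1 of the 10, *Ndn* again, had an unadjusted p under 0.05, as did 4426 of the 16581 genes. DESeq2 called 1 of the 10 and 2925 of all genes, and limma-voom called 3 of the 10 and 6973 of all genes. The median of the 10 was 0.27 on the log2 scale in PRELP-/- against WT, with a median of 0.023 over all genes. Both comparisons use the same WT libraries.

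**Figure D2:**
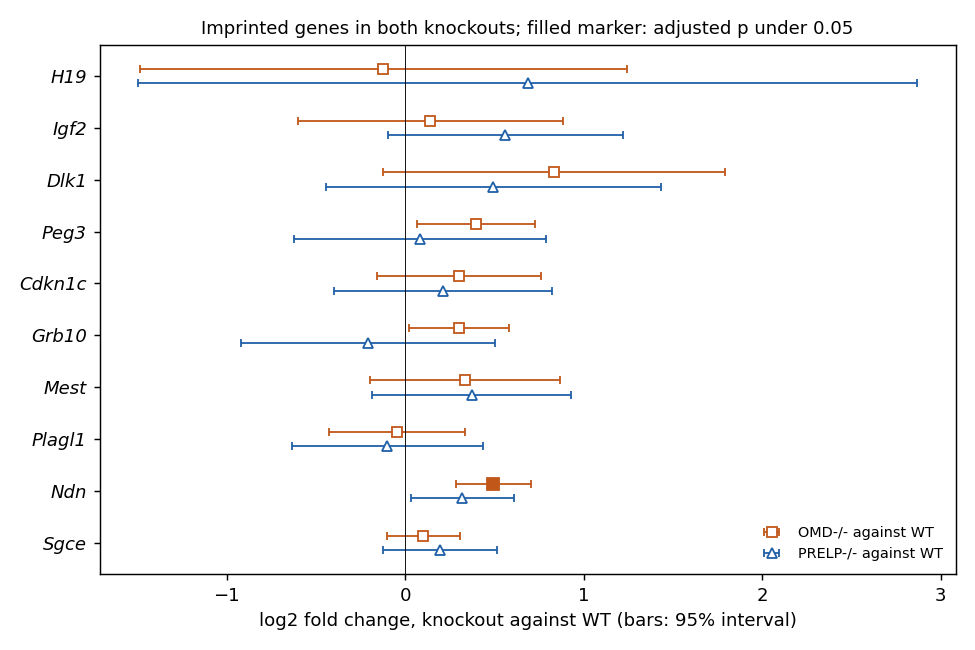
Fitted log2 fold change of each gene (horizontal axis) in OMD-/- against WT (squares) and PRELP-/- against WT (triangles), with 95% intervals and filled markers where the adjusted p was under 0.05. *Ndn* in OMD-/-, at 0.49, is the only filled marker, and the intervals of *H19* run from −1.49 to 1.24 and from −1.49 to 2.86.

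*Ndn* (chr7:62346569-62350262, plus strand) was the steadiest of the 10 genes within each group, where its coefficients of variation were 4.89% (WT), 1.15% (OMD-/-) and 4.07% (PRELP-/-). It stood at 15.8, 15.5, 14.8 and 16.7 CPM in WT, at 22.4, 22.1 and 21.9 CPM in OMD-/- and at 20.6, 20.0 and 18.98 CPM in PRELP-/-. Every library of either knockout was above every WT library. Of all genes tested, 38.9% in OMD-/- and 30% in PRELP-/- also did not overlap WT, in either direction. The mean rose from 15.7 ± 0.767 CPM (SD, n = 4) to 22.1 ± 0.255 CPM (SD, n = 3) in OMD-/-, a log2 fold change of 0.49 ± 0.10 (SE) with an adjusted p of 0.00349 by edgeR. In PRELP-/- the mean was 19.9 ± 0.808 CPM (SD, n = 3) and the log2 fold change 0.32 ± 0.13 (SE), with an adjusted p of 0.149 by edgeR. That value was 0.0470 with DESeq2, and over the alternatives it ran from 0.00996 to 0.688. The OMD-/- call was lost where close libraries were summed (log2 fold change 0.51, adjusted p = 0.0737 by edgeR), and it was kept in the other alternatives, in which the adjusted p was at most 0.0193. The *Ndn* difference between WT replicates 1 and 2 and WT replicates 3 and 4 was −0.0055 on the log2 scale. Summed fibroblast markers lay wholly above WT in OMD-/-, as did those of urothelium (15998 to 21285 CPM against 13458 to 14952), endothelium (462 to 546 against 177 to 400), leukocytes (75.0 to 170 against 59.1 to 68.3) and cycling cells (11.41 to 27.0 against 7.16 to 11.39). In PRELP-/- the markers of fibroblasts (10026 to 19692 CPM) and urothelium (18147 to 29134 CPM) also lay wholly above WT. So did those of leukocytes (73.6 to 74.9 CPM), cycling cells (12.3 to 13.5 CPM), blood, mesothelium and nerve. Those of endothelium overlapped WT, and those of smooth muscle lay below it. The part of all these markers in the higher *Ndn* level of either knockout was not tested.

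*Ndn* lies in the cluster that is known in humans for Prader-Willi syndrome, and its neighbours did not pass the test in either knockout. *Snrpn*, which makes a spliceosome protein, had a log2 fold change of 0.09 ± 0.12 (SE) in OMD-/- and 0.38 ± 0.17 in PRELP-/-. *Mkrn3*, a ring finger protein that acts on the timing of puberty, had −0.73 ± 0.36 (SE) and −0.23 ± 0.37. *Ube3a*, a ubiquitin ligase read from the maternal copy in neurons, had −0.10 ± 0.14 (SE) and −0.02 ± 0.20. *Peg12* had 0.43 ± 0.27 (SE) and −0.24 ± 0.23. *Magel2*, the gene next to *Ndn* and its closest relative in the cluster, had 0 CPM in all 10 libraries.

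*Peg3* (chr7:6703892-6730431, minus strand) stood at 184, 179 and 185 CPM in OMD-/-. In WT it was at 164 and 168 CPM in replicates 1 and 2 and at 113 and 109 CPM in replicates 3 and 4, and in PRELP-/- it was at 79.8, 182 and 182 CPM. All OMD-/- libraries were above all WT libraries, whereas PRELP-/- replicate 1 was the lowest of the 10 libraries and replicates 2 and 3 reached the OMD-/- level. The log2 fold change was 0.40 ± 0.15 (SE) in OMD-/-, with an adjusted p of 0.0689 by edgeR. It passed without WT replicate 1 (0.49, adjusted p = 0.0358) and without WT replicate 2 (0.50, adjusted p = 0.0293), and in 5 other alternatives of 17. In PRELP-/- it was 0.08 ± 0.31 (SE) with an adjusted p of 0.891 by edgeR, and over the alternatives its sign changed in 7 of 17 and it passed in 1, limma-voom (0.53, adjusted p = 0.0079). That setting called 6973 of all genes. Both *Ndn* and *Peg3* counted among genes whose OMD-/- and WT libraries did not overlap, and so did 38.9% of all genes tested.

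*Cdkn1c*, *Grb10* and *Plagl1* encode proteins that restrain growth. *Cdkn1c* makes p57, an inhibitor of cyclin-dependent kinases, and lay at chr7:143458339-143461050 on the minus strand. It stood at 5.05 and 5.20 CPM in WT replicates 1 and 2, at 7.89 and 8.42 CPM in WT replicates 3 and 4, at 7.59, 8.27 and 8.59 CPM in OMD-/- and at 5.45, 9.14 and 8.55 CPM in PRELP-/-. The groups overlapped, since WT replicates 3 and 4 were within the range of the knockouts and PRELP-/- replicate 1 was near WT replicates 1 and 2. The log2 fold changes were 0.30 ± 0.21 (SE) in OMD-/- and 0.21 ± 0.27 in PRELP-/-, and neither passed. Against WT replicates 1 and 2 alone, the OMD-/- value was 0.67 with an adjusted p of 0.0159 by edgeR, and against WT replicates 3 and 4 alone it was −0.000884. *Cdkn1c* has 625 of its 2039 exon bases in common with a gene model on the other strand, Gm44732, that had 0 CPM. The effect of these bases on its counts was not tested.

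*Grb10* (chr11:11930508-12038683, minus strand) makes an adaptor protein that binds and dampens the insulin and IGF1 receptors. It stood at 23.3, 28.2, 21.3 and 20.2 CPM in WT and at 25.5, 30.7 and 29.8 CPM in OMD-/-. In PRELP-/- it had 10.1 CPM in replicate 1 and 24.0 and 26.8 CPM in the other two. OMD-/- lay toward the top of the WT range and overlapped it through WT replicate 2, and PRELP-/- replicate 1 was the lowest of all libraries. The log2 fold change in OMD-/- was 0.30 ± 0.13 (SE), adjusted p = 0.0949 by edgeR, and it passed in 4 of 17 alternatives, namely without WT replicate 2 (0.40, adjusted p = 0.0240), with limma-voom (0.42, adjusted p = 0.00669), with the summed Y-chromosome genes as a covariate and against WT replicates 3 and 4 alone. In PRELP-/- it was −0.21 ± 0.31 (SE), adjusted p = 0.702, and its sign changed in 2 of 17 alternatives.

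*Plagl1* (chr10:13060504-13131694, plus strand) makes a zinc finger transcription factor that slows cell division and binds at other imprinted genes. Its levels were 27.2, 29.7, 31.9 and 46.8 CPM in WT, 31.9, 34.9 and 31.7 CPM in OMD-/- and 23.6, 36.1 and 35.9 CPM in PRELP-/-. WT replicate 4 was the highest library and PRELP-/- replicate 1 the lowest, and the groups overlapped. The log2 fold changes were −0.04 ± 0.17 (SE) and −0.10 ± 0.24, with 95% intervals from −0.43 to 0.34 and from −0.63 to 0.44. The sign changed in 3 of 17 alternatives in OMD-/- and in 6 of 17 in PRELP-/-.

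*Igf2* makes the insulin-like growth factor of fetal growth, and *Dlk1* a membrane protein of the Notch ligand family that holds back fat cell differentiation. *Igf2* (chr7:142650766-142666816, minus strand) stood at 4.75, 4.11, 2.84 and 2.04 CPM in WT, at 2.26, 5.17 and 3.98 CPM in OMD-/- and at 5.17, 5.41 and 4.96 CPM in PRELP-/-. Every PRELP-/- library was above every WT library, and the OMD-/- libraries overlapped the WT range. In PRELP-/- against WT, 30% of all genes tested did not overlap, in either direction. The log2 fold change in PRELP-/- was 0.56 ± 0.29 (SE), adjusted p = 0.253 by edgeR, and in OMD-/- it was 0.14 ± 0.34, adjusted p = 0.786. With limma-voom, which called 6973 of all genes in that comparison, the PRELP-/- value passed (0.78, adjusted p = 0.0104). Of its 5723 exon bases, the annotation gives *Igf2* 98 in common with the antisense *Igf2os*. It gives 3596 in common with a gene model on the same strand, Gm49394, that had 0 CPM. How reads in these shared bases entered the counts was not tested, so the values of *Igf2* are uncertain.

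*Dlk1* (chr12:109452823-109463336, plus strand) was near the limit of detection, with 5 to 24 counts in each library. It stood at 0.479, 0.524, 0.222 and 0.310 CPM in WT, at 0.519, 0.933 and 0.640 CPM in OMD-/- and at 0.511, 0.521 and 0.643 CPM in PRELP-/-. The groups overlapped through WT replicate 2. The log2 fold changes were 0.83 ± 0.43 (SE) in OMD-/- and 0.49 ± 0.41 in PRELP-/-, the first with a 95% interval from −0.12 to 1.79 and an adjusted p of 0.173 by edgeR. With limma-voom the OMD-/- value passed (1.18, adjusted p = 0.0374), which it did in no other alternative.

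*H19* (chr7:142575529-142578143, minus strand), the long noncoding RNA made from the maternal copy next to *Igf2*, had 3 to 42 counts in each library. It stood at 0.838, 0.786, 0.133 and 0.266 CPM in WT, at 0.801, 0.297 and 0.366 CPM in OMD-/- and at 2.39, 0.160 and 0.184 CPM in PRELP-/-. WT replicates 1 and 2, OMD-/- replicate 1 and PRELP-/- replicate 1 were the higher libraries. In CPM, the range from lowest to highest library within each genotype was wider than any difference between group means. The log2 fold changes were −0.12 ± 0.62 (SE) in OMD-/- and 0.69 ± 0.96 in PRELP-/-, and the sign changed in 5 of 14 and 2 of 14 alternatives. *H19* and *Igf2* are read from opposite parental copies, and they did not follow each other in PRELP-/- replicate 1, where *H19* was at its highest and *Igf2* at 5.17 CPM, within 0.0034 on the log2 scale of replicates 2 and 3.

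*Mest* and *Sgce* did not pass the test in either knockout. *Mest* (chr6:30723547-30748465, plus strand), which encodes a membrane protein of the hydrolase family and is known for fat tissue growth, stood at 2.03, 2.45, 3.59 and 2.53 CPM in WT, 2.92, 3.52 and 3.52 CPM in OMD-/- and 3.92, 3.49 and 2.99 CPM in PRELP-/-. Its log2 fold changes were 0.34 ± 0.24 (SE) and 0.37 ± 0.25, and WT replicate 3 overlapped both knockouts. *Mest* has 912 exon bases in common with *Copg2*, a coat protein gene on the other strand with a mean of 134 CPM, and the strand setting of the counting was not given in the sources used here, so its values are uncertain. *Sgce* (chr6:4674350-4747207, minus strand) stood at 53.7, 44.5, 55.8 and 51.4 CPM in WT, 54.5, 56.3 and 54.5 CPM in OMD-/- and 68.0, 53.2 and 57.7 CPM in PRELP-/-. The groups overlapped, and the log2 fold changes were 0.10 ± 0.09 (SE) and 0.19 ± 0.14. The 95% interval in OMD-/-, from −0.10 to 0.31, was the narrowest of the 10.

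**Figure D3:**
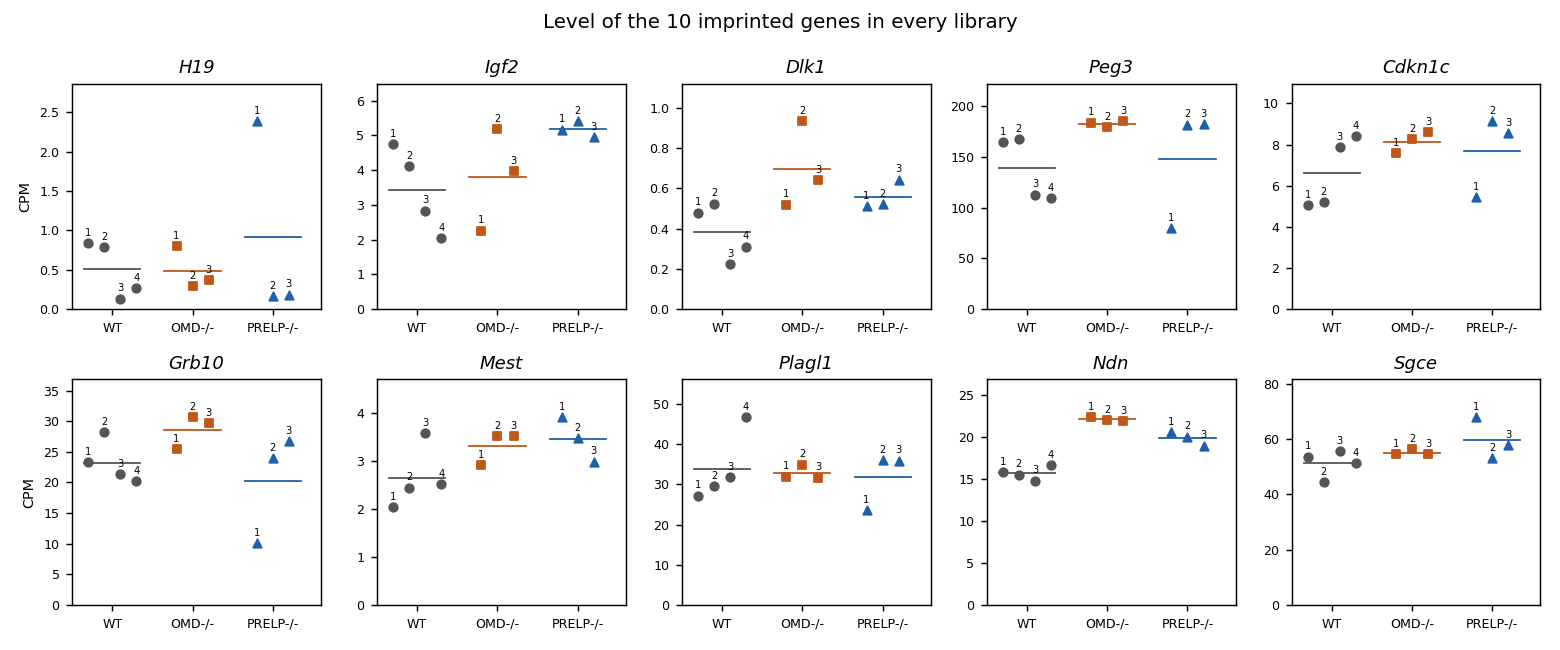
CPM (vertical axis, from 0) of each gene in each library, grouped by genotype, with replicate numbers beside the points and a line at each group mean. *Ndn* separates WT (14.8 to 16.7) from OMD-/- (21.9 to 22.4) and PRELP-/- (18.98 to 20.6), whereas *Peg3* and *Grb10* fall in PRELP-/- replicate 1 to 79.8 and 10.1.

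The test did not distinguish the knockouts from each other at any of these genes that it covered. In PRELP-/- against OMD-/-, 9 of the 10 were tested, *H19* being left out by the filter on low counts, and none was called by edgeR or in any alternative. None had an unadjusted p under 0.05. Only 1 of 15805 genes was called there (0.00633%), and 713 had an unadjusted p under 0.05. With the replicate number as a block, 43 genes were called, none of them among the 10. The largest differences were −0.50 ± 0.35 (SE) for *Grb10*, 0.44 ± 0.31 for *Igf2* and −0.33 ± 0.36 for *Dlk1* on the log2 scale. For *Ndn* the difference was −0.16 ± 0.12 (SE), with a 95% interval from −0.45 to 0.13. Every PRELP-/- library was below every OMD-/- library for *Ndn*. Of the 15805 genes tested, 2387 did not overlap there, in either direction.

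For 8 of the 10 genes, the WT pairs differed in mean log2 CPM by more than the size of the fitted OMD-/- change. For *Grb10* the 2 values were almost equal, at 0.303 and 0.302. The WT pairs were chosen after seeing the data, and the share over all genes was not computed. Between WT replicates 1 and 2 and WT replicates 3 and 4 the mean log2 CPM differed by 1.72 for *H19*, 0.86 for *Igf2*, 0.76 for *Dlk1*, 0.58 for *Peg3* and −0.66 for *Cdkn1c*. PRELP-/- replicate 1 differed from replicates 2 and 3 by 3.29 for *H19*, −1.33 for *Grb10*, −1.19 for *Peg3*, −0.69 for *Cdkn1c* and −0.61 for *Plagl1*. *Ndn*, at −0.0055 and 0.08, and *Sgce*, at −0.13 and 0.30, had the smallest sums of these differences in size. The WT pairs also differed in smooth muscle and Y-chromosome markers, and PRELP-/- replicate 1 in blood, urothelial and fibroblast markers. The part of these markers in the differences was not tested. With the WT group reduced to replicates 3 and 4, 3 of the 10 genes passed in OMD-/-, and with it reduced to replicates 1 and 2, 2 of them did. With all WT libraries 29.4% of all genes were called, and the shares in the reduced fits are not given here.

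**Figure D4:**
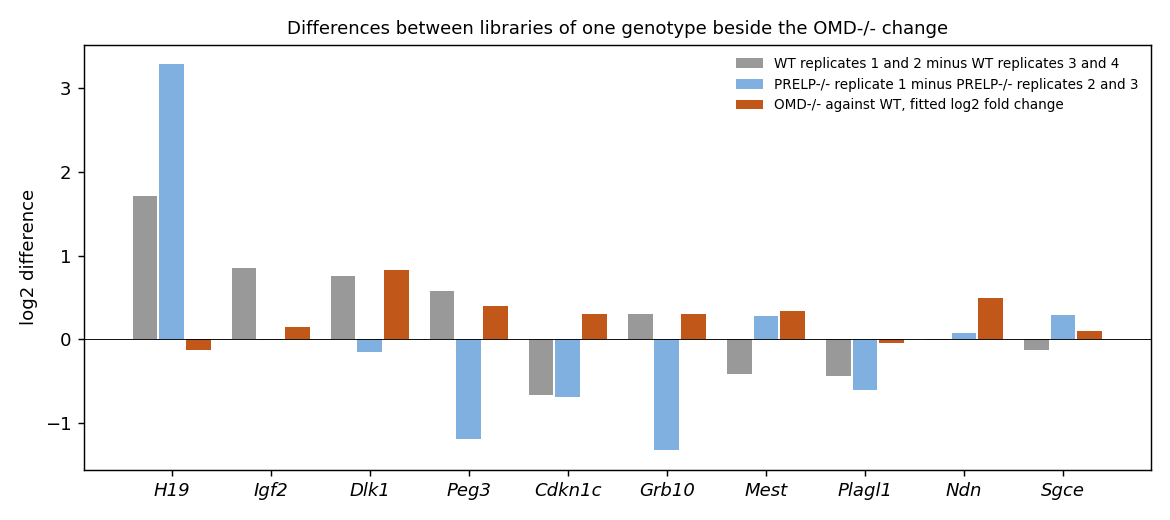
For each gene (horizontal axis), the log2 difference between the WT library pairs (grey), between PRELP-/- replicate 1 and the other two PRELP-/- libraries (blue), and the fitted OMD-/- change (orange). *H19* reaches 1.72 and 3.29 in the differences within a genotype, whereas *Ndn* has −0.0055 and 0.08 beside an OMD-/- change of 0.49.

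The 10 genes were set beside 58 other imprinted genes, 36 of them neighbours in the same clusters. In OMD-/- against WT, 14 of the 44 that could be tested were called, 5 higher and 9 lower, beside 14.3% and 15.1% of all genes. In PRELP-/- against WT, 8 of 43 were called, 2 higher and 6 lower, beside 1.4% and 5.89% of all genes. That second count was 15 without PRELP-/- replicate 1, 4 without PRELP-/- replicate 2 or WT replicate 2, and 5 without any other single library of the comparison. Their median log2 fold changes were 0.02 and 0.06. By the annotated gene type, a split made after the values were seen, 7 of 7 tested genes that are not protein coding were called in OMD-/- and 5 of 7 in PRELP-/-, and 7 of 37 and 3 of 36 of those that are protein coding. The shares called among all genes of each type were not computed, so the split does not set imprinted genes apart from others.

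The largest differences lay in the cluster of *Dlk1*. *Meg3*, the maternal long noncoding RNA of that cluster, stood at 126, 121, 113 and 108 CPM in WT, at 2.88, 5.68 and 4.20 CPM in OMD-/- and at 4.72, 2.12 and 4.14 CPM in PRELP-/-. Both knockouts were far below every WT library, with log2 fold changes of −4.77 ± 0.19 (SE) and −5.03 ± 0.28, whereas *Dlk1* beside it had 0.83 and 0.49 and did not pass. *Mirg*, a microRNA host of the same chromosome stretch, had log2 fold changes of −3.04 ± 0.44 (SE) and −3.12 ± 0.41. Its counts were low, at 63 to 111 per library in WT, 2 to 14 in OMD-/- and 4 to 12 in PRELP-/-. *Rian*, which lies between them and hosts small nucleolar RNAs, stood at 63.5, 54.0, 70.1 and 77.7 CPM in WT, at 23.3, 18.7 and 16.9 CPM in OMD-/- and at 53.1, 18.4 and 19.1 CPM in PRELP-/-. It fell by 1.76 in OMD-/-, and in PRELP-/-, where replicate 1 was near WT, the value was −1.17 ± 0.36 (SE) with an adjusted p of 0.0884 by edgeR.

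Near the other genes, *Kcnq1ot1*, the paternal noncoding RNA that silences the cluster of *Cdkn1c*, stood at 13.1, 26.4, 22.9 and 24.8 CPM in WT, 6.98, 10.3 and 8.00 CPM in OMD-/- and 2.84, 7.41 and 6.43 CPM in PRELP-/-. All knockout libraries were below all WT libraries, and it fell by 1.36 and 1.97 on the log2 scale, whereas *Cdkn1c* did not pass. *Slc22a18*, a transporter of the same cluster, rose by 0.44 ± 0.11 (SE) and 0.75 ± 0.16. *Igf2os*, antisense to *Igf2*, fell by 0.78 in OMD-/- and had −0.61 ± 0.20 (SE), adjusted p = 0.0990 by edgeR, in PRELP-/-. *Zim1*, a zinc finger gene beside *Peg3*, fell by 0.58 in OMD-/- and by 1.61 in PRELP-/-. *Ppp1r9a*, of the *Sgce* cluster, fell by 0.56 in OMD-/-, and *Copg2* rose there by 0.23 ± 0.08 (SE). *Kcnq1ot1* has 121 of its 93092 exon bases in common with *Kcnq1* on the other strand.

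Outside these clusters, *Airn*, the noncoding RNA antisense to *Igf2r*, fell by 1.25 in OMD-/- and 1.17 in PRELP-/-, and *Nnat*, neuronatin, fell by 1.504 and 1.63. *Nnat* had low counts, at 41 to 128 per library in WT and 11 to 21 in each knockout. *Peg13*, a noncoding RNA inside *Trappc9*, was higher in both, at a mean of 136 CPM in OMD-/- and 150.2 CPM in PRELP-/- against 105 CPM in WT, with log2 fold changes of 0.37 ± 0.08 (SE) and 0.50 ± 0.12. *Trappc9* rose by 0.61 ± 0.10 (SE) and *H13* by 0.41 ± 0.08 in OMD-/-.

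**Figure D5:**
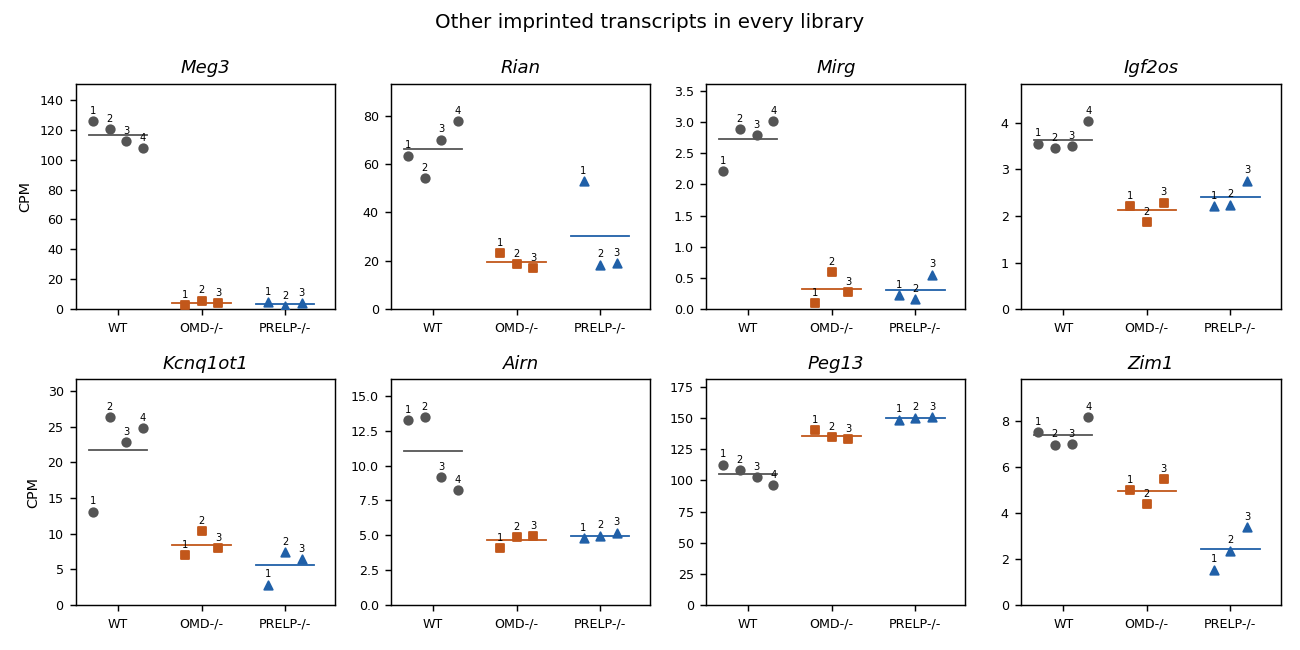
CPM (vertical axis, from 0) of 8 other imprinted transcripts in each library by genotype, with replicate numbers and group means. *Meg3* drops from between 108 and 126 in WT to at most 5.68 in the knockouts, and *Peg13* moves the other way.

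Genes whose products work with those of the 10 were counted from a list of 24, of which 22 were tested. In OMD-/-, 5 passed, or 22.7% beside 29.4% of all genes, and in PRELP-/- 1 passed, or 4.55% beside 7.29%, so neither share was above the background. *Igf1r*, the receptor through which IGF2 acts on growth, rose by 0.46 ± 0.11 (SE) on the log2 scale, and *Dag1* (dystroglycan) and *Sgcb* (beta-sarcoglycan), which sit in the membrane complex of the sarcoglycans, rose by 0.65 ± 0.10 and 0.42 ± 0.14. *Cdk2* and *Cdkn1b*, a kinase of the cell cycle and a relative of *Cdkn1c*, fell by 0.97 and 0.39. In PRELP-/- it was *Cdk2* that passed, and it fell by 0.74.

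Of 16 factors that set or keep imprints or, like the Tet genes, oxidise methylated cytosine, 14 were tested. The list was chosen with earlier results of these data known. In OMD-/- 9 passed (2 higher, 7 lower) and in PRELP-/- 3 passed (all lower), with *Tet2* and *Tet3* among them in both. The shares were 64.3% and 21.4%, beside 29.4% and 7.29% of all genes. *Zfp57*, a zinc finger protein that guards methylated imprints in the embryo, stood at 9.06 to 11.7 CPM in WT, 3.15 to 3.82 CPM in OMD-/- and 3.45 to 5.17 CPM in PRELP-/-, and it fell by 1.56 and 1.31 on the log2 scale. *Tet2* and *Tet3*, which oxidise methylated cytosine, fell by 1.15 and 0.75 in OMD-/-, and in PRELP-/- their log2 fold changes were −1.999 ± 0.42 (SE) and −0.94 ± 0.23, which also passed. In OMD-/- *Dnmt3a*, *Dnmt3b*, *Dnmt3l* and *Zfp445* also fell, by 0.36, 0.78, 0.48 and 0.31, whereas *Dnmt1*, the maintenance methyltransferase, and *Trim28*, the corepressor recruited by *Zfp57*, rose by 0.41 ± 0.12 (SE) and 0.25 ± 0.08. DNA methylation itself was not measured.

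Over the 10 libraries, the genes whose log2 CPM was most like that of *H19* among 11500 with a mean of at least 5 CPM were *Cdkn2d* (Pearson r = 0.96), *Rabl2* (0.95) and *Actl6a* (0.94). Those most like *Igf2* were *Neu3* (0.91), *Mbp* (0.88) and *Sh3rf2* (0.87). Without the 2 libraries farthest from the median of *H19*, PRELP-/- replicate 1 and WT replicate 1, the values for *H19* were 0.89, 0.87 and 0.91, and without WT replicate 4 and OMD-/- replicate 1 those for *Igf2* were 0.87, 0.77 and 0.68. They describe genes picked for their likeness, within libraries that differ in cell markers.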

How the data were processed

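Poly(A) RNA of 10 mouse bladder libraries (4 WT, 3 OMD-/-, 3 PRELP-/-) was analysed. The deposited files hold raw read counts per gene, made by the authors with featureCounts; the submitters' processing notes name STAR 2.5.2b and GRCm38, whereas the column headers name HISAT2, and the strand setting and the use of the molecular identifiers were not given in the sources used here. The authors' tables of DESeq2 comparisons (fold changes, p-values) were not used.

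Only the 2 groups compared entered each edgeR 4.0.16 model (R 4.3.3; TMM, filterByExpr, robust quasi-likelihood test, Benjamini-Hochberg adjustment over all genes tested, threshold 0.05). CPM were scaled by TMM over all 10 libraries, and log2 CPM had a prior count of 2. Totals of 20391437 to 46269079 counts set the precision; intervals cover 95%. Alternatives used DESeq2 1.42.0, limma 3.58.1 (voom), other normalization and filters, covariates and omitted libraries. Scripts were tested on simulated data.

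All 10 genes are named whatever their values, and other listed genes where they passed in a comparison or lie beside a gene that did; the genes most like *H19* and *Igf2* were the 3 with the highest Pearson r. The genes and lists were chosen with earlier results of these data known. Promoters were to be printed for genes passing in both knockouts; none did. Replicate numbers were checked as pairs from the deviations from group means, and these correlated at 0.30, 0.18 and 0.15 between OMD-/- and PRELP-/-. Replicate 1 stood apart from replicates 2 and 3 in both knockouts, so these values cannot by themselves show pairing. No label says what the numbers mark. The reported fit did not pair the libraries, and the number entered as a block only in an alternative.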

Additional observations from a re-analysis of the deposited data

How the results depend on the processing

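Between 0 and 4 of the 10 genes were called in any setting. In OMD-/- against WT, where 1 was called, DESeq2 and no filter on low counts each gave 2, limma-voom with quality weights 4, the summed Y-chromosome genes as a covariate 3, WT replicates 1 and 2 alone 2, WT replicates 3 and 4 alone 3, summing close libraries 0, and leaving out each library in turn 1 to 3. The cause of these shifts was not tested, and the counts were not set against the share over all genes in each setting. In PRELP-/- against WT, where none was called, DESeq2 gave 1 and limma-voom 3. The median log2 fold change of the 10 in OMD-/- was 0.19 against WT replicates 1 and 2 alone and 0.46 against replicates 3 and 4 alone (0.27 to 0.40 with a library left out), and in PRELP-/- 0.17 and 0.16. In PRELP-/- against OMD-/- it was −0.08, and 0.12 with the Y-chromosome covariate.

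Counts of the other imprinted genes depended more on the libraries. In OMD-/- against WT (14) one fit of all 10 libraries gave 9 and summed libraries 8. In PRELP-/- against WT (8) limma-voom gave 20, WT replicates 1 and 2 or 3 and 4 alone 2 each, summed libraries 1, and leaving out each library 4 to 15. In PRELP-/- against OMD-/- (0) limma-voom gave 3.

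Over all genes, OMD-/- against WT (4899) gave 2485 in one fit of all libraries, 1658 with summed libraries and 2951 to 4850 with a library left out. PRELP-/- against WT (1209) gave 2925 with DESeq2, 6973 with limma-voom, 2485 in one fit, 119 and 453 with the WT pairs alone, 13 with summed libraries and 475 to 3807 with a library left out. There 19.2% of called genes were higher, against 40.4% with DESeq2, 39.3% in one fit and 48.8% with limma-voom. PRELP-/- against OMD-/- (1) gave 5 without the filter, 54 with DESeq2, 1012 with limma-voom, 3 in one fit, 4 with the covariate, 0 with summed libraries (713 unadjusted in the unsummed fit) and 1 to 36 with a library left out.

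With the replicate number as a block, 1 of the 10 genes was called in OMD-/- and none in PRELP-/- against WT, where the other imprinted genes fell to 2 calls and all genes to 115, and 43 genes were called in PRELP-/- against OMD-/-. Numbers shared with WT did not pair the samples (r from −0.10 to 0.14). The summed libraries and the WT pairs were chosen after seeing the data. At 3 to 42 counts for *H19* and 5 to 24 for *Dlk1*, depth limits what can be said of them.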
